A study of Mus musculus with 6 samples.

Results

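Radial glia, astrocytes and the oligodendrocyte lineage were followed through 41 marker genes in RNA sequencing counts from mouse neocortex at embryonic day 18.5. The members were the rows of the deposited table whose symbol stood on a fixed list: 13 radial glia markers, 15 astrocyte markers and 13 oligodendrocyte lineage markers, out of 23420 genes. All 41 were present in the table and 40 passed the expression filter, as did 14618 genes in all. The study compared 3 libraries labelled Tshz3 mutant with 3 wild-type libraries, each made from a pool of cortices from 3 to 4 embryos taken from multiple litters. Tshz3 encodes a transcription factor with zinc fingers, and nothing used here states the allele, the strain or the sex of the embryos.

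Radial glia are the stem cells of the embryonic cortex, with cell bodies beside the ventricle and a long fibre to the surface. Late in gestation, after most neurons have been made, they turn to making glia. Astrocytes clear glutamate and potassium and supply neurons, and oligodendrocytes arise from migrating precursors, partly born in the ventral forebrain, that later wrap axons in myelin. At this stage many astrocyte genes are still expressed by radial glia and myelination has hardly begun, so the lists overlap in the cells they mark. In bulk tissue, fewer cells of a type and less RNA per cell cannot be told apart.

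Total counts ran from 18569383 to 24147810 per library. Tshz3 itself had 89.8, 93.1 and 99.2 CPM (counts scaled for library size and composition) in mutant-labelled libraries 1, 2 and 3, against 78.7, 83.0 and 89.3 CPM in their wild-type counterparts. The transcript was thus not lower in the mutant-labelled libraries, and since the mutated part of the gene is not given, the gene-level count does not check the labels. Same-numbered libraries of the genotypes deviated together from their group means, so each fold change, always mutant-labelled over wild type, was fitted without the library number and again with that number as a block, called paired below. Markers of postmitotic neurons summed to between 10414 and 11352 CPM in mutant-labelled libraries and between 10543 and 11409 CPM in wild type.

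The most abundant members per exon length, Fabp7 and Dbi, were radial glia genes, but levels varied widely within that list. Per kilobase of merged exon, Fabp7, which encodes the brain lipid-binding protein of radial glia, stood at 529 CPM per kb in mutant-labelled and 501 CPM per kb in wild-type libraries on average. Next in that list came Dbi, which encodes the acyl-CoA-binding protein also known as diazepam-binding inhibitor, at 129.6 CPM per kb in mutant-labelled and 130.02 in wild-type libraries, and Vim, the intermediate filament vimentin, at 91.9 CPM per kb in both groups. Pax6, the transcription factor that defines dorsal radial glia, was the lowest of the 13 at 4.55 CPM per kb in mutant-labelled and 4.71 CPM per kb in wild-type libraries.

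Among astrocyte markers, Sparcl1, which encodes the secreted protein hevin, was highest at 107 CPM per kb in mutant-labelled and 124 CPM per kb in wild-type libraries. Apoe, a lipid carrier, stood at 76.4 and Aldoc, a glycolytic enzyme, at 49.2 CPM per kb in mutant-labelled libraries, against 83.3 and 46.2 CPM per kb in wild type. Classical markers of mature astrocytes were low. Gfap, the astrocyte intermediate filament, had 3.44 CPM per kb in mutant-labelled and 3.62 in wild-type libraries, and S100b, a calcium-binding protein, had 0.470 and 0.529 CPM per kb in the same groups.

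In the oligodendrocyte list the transcription factors Olig1 and Olig2 led. Olig1 stood at 29.7 and Olig2 at 13.6 CPM per kb in mutant-labelled libraries, against 28.4 and 12.4 CPM per kb in wild type. Myt1, a zinc finger factor that neurons also use, followed at 10.4 CPM per kb in mutant-labelled and 10.3 CPM per kb in wild-type libraries. At the other end, Enpp6, a choline phosphodiesterase of newly forming oligodendrocytes, had 1, 2 and 0 reads in mutant-labelled libraries 1 to 3 and 1, 0 and 1 reads in wild-type libraries 1 to 3. It was not tested, and with so few reads no difference was detectable at this depth.

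**Figure D1:**
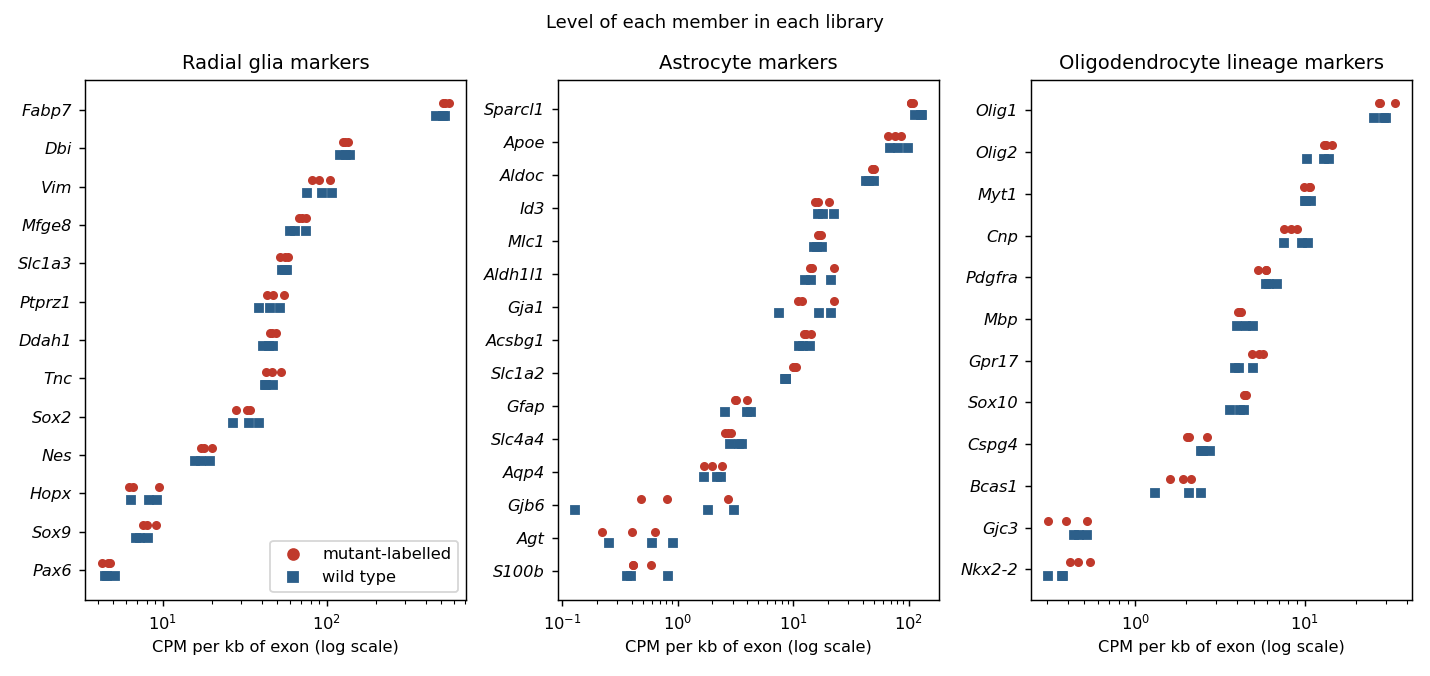
Level of the 40 tested members in each library, as CPM per kilobase of merged exon on a log axis, with mutant-labelled libraries as circles above wild-type libraries as squares. The radial glia panel reaches 529 CPM per kb for Fabp7, while Nkx2-2 averaged 0.472 CPM per kb in mutant-labelled and 0.350 in wild-type libraries; most members overlap between the groups.

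Most glial markers differed little between the genotypes. Without pairing, 0 of the 40 members reached an adjusted p below 0.05 by the edgeR quasi-likelihood test, where 0.0752% of all genes tested did. At an unadjusted p under 0.05 there were 4 members, beside 7.09% of all genes tested. With pairing, 3 of 40 passed, beside 3.46% of all genes tested (1.97% higher and 1.49% lower): Slc1a2 and Gpr17 were higher and Sparcl1 was lower in mutant-labelled libraries. The groups of libraries did not overlap for 4 members, Slc1a2, Sox10 and Nkx2-2 upward and Sparcl1 downward, whereas 13.5% of all genes tested had groups that did not overlap (7.42% higher and 6.09% lower). A share of 4 in 40 is no larger than that background. The median log2 fold change was 0.08 for radial glia, −0.07 for astrocyte and −0.02 for oligodendrocyte lineage markers, beside −0.01 for all genes tested. Unpaired, the radial glia median was 0.021 without mutant-labelled library 2, 0.025 without wild-type library 2 and 0.012 without wild-type library 3.

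**Figure D2:**
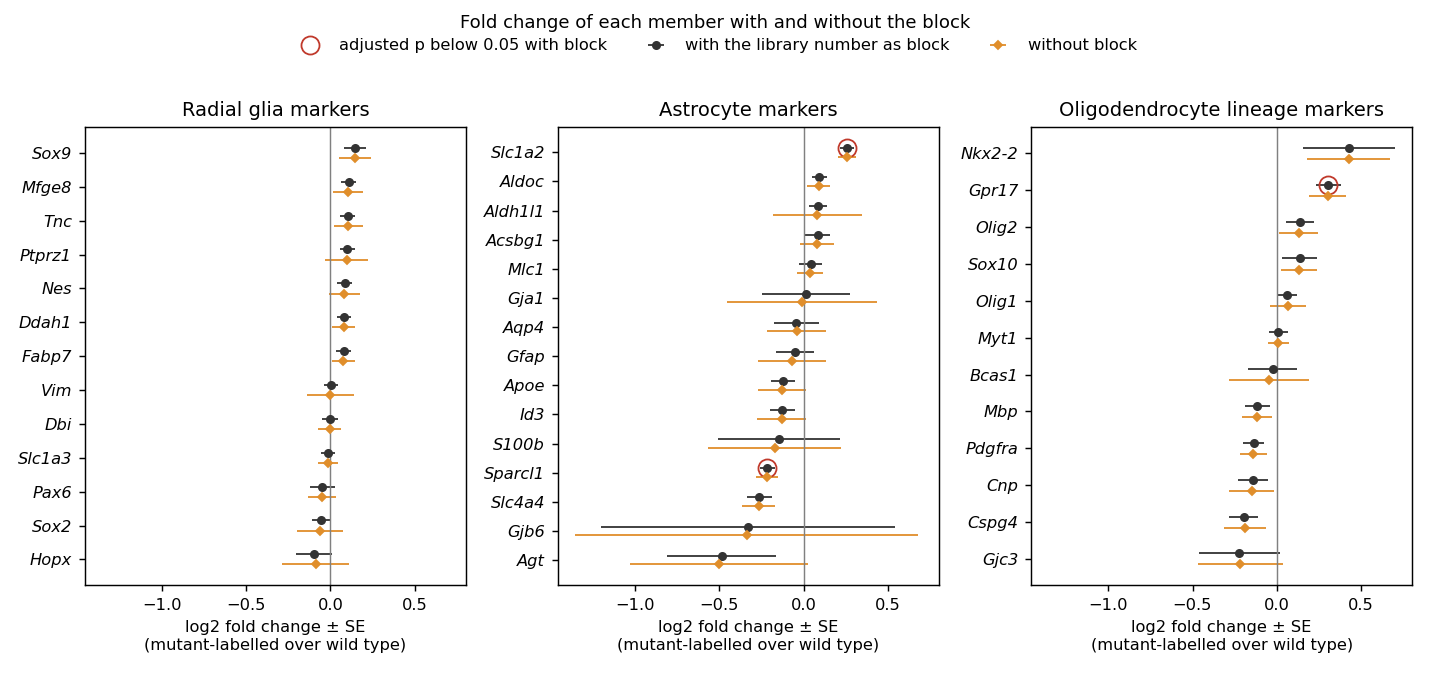
Log2 fold change of each tested member, mutant-labelled over wild type, with its standard error, paired by library number (circles) and without pairing (diamonds); rings mark an adjusted p below 0.05 in the paired fit. The rings sit on Slc1a2 at 0.26, Sparcl1 at −0.21 and Gpr17 at 0.31, and the 13 radial glia markers lie between −0.10 and 0.15 in the paired fit.

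None of the 13 radial glia markers passed in either fit, nor did any by DESeq2, which took the unpaired design. Unadjusted, 0 had p under 0.05 without pairing and 4 did with pairing, where 17.9% of all genes tested did. Their paired log2 fold changes ran from −0.10 for Hopx, a marker of outer radial glia in human cortex, to 0.15 for Sox9, a transcription factor of the switch to gliogenesis. The paired 95% confidence intervals of all 13 lay within −0.32 and 0.29, and the unpaired ones within −0.55 and 0.39. Larger changes than these are outside the intervals for every member of this list.

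Sox9 had 37.5, 33.1 and 31.5 CPM in mutant-labelled and 33.6, 30.2 and 28.3 CPM in wild-type libraries, in the order of their numbers, which holds throughout. Each mutant-labelled library lay above the wild-type library of its number, but the groups overlapped, and the paired log2 fold change of 0.15 (SE 0.07) had an adjusted p of 0.257. Hopx had 14.4, 10.01 and 9.47 CPM in mutant-labelled libraries and 13.9, 12.4 and 9.64 CPM in wild-type libraries. Library 1 was the highest of each genotype for Hopx, and the spread within a genotype exceeded the difference between them.

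Fabp7 had 654, 637 and 693 CPM in mutant-labelled libraries, against 660.0, 579 and 641 CPM in wild-type libraries. Dbi had 112.5, 109 and 117 CPM in mutant-labelled libraries, against 121, 105 and 114 CPM in wild type. Vim had 229.6, 196 and 179 CPM in mutant-labelled libraries, against 235, 204 and 166 CPM in wild type. All 3 genes overlapped between the groups, with paired log2 fold changes of 0.08 (SE 0.05) for Fabp7, −0.003 (SE 0.05) for Dbi and 0.004 (SE 0.04) for Vim.

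The transcription factors of radial glia identity stayed close to their wild-type level. Pax6 had 32.7, 32.1 and 29.4 CPM in mutant-labelled libraries and 31.6, 30.8 and 35.2 CPM in wild-type libraries, a paired log2 fold change of −0.05 with a 95% confidence interval of −0.21 to 0.12. Sox2, which maintains neural stem cells, had one of −0.05 with an interval of −0.17 to 0.07. Slc1a3, the glutamate transporter GLAST, had 255, 227 and 246 CPM in mutant-labelled libraries and 253, 236 and 246 CPM in wild-type libraries, with an interval of −0.10 to 0.07.

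A set of 6 radial glia markers was higher in the mutant-labelled library of every same-numbered pair: Sox9, Nes, Ptprz1, Tnc, Mfge8 and Ddah1. None of the 13 was lower in every pair, while 19.3% of all genes tested were higher and 19.8% lower in all 3 pairs. The differences were small. Tnc, the matrix protein tenascin C, averaged 367 ± 39.9 CPM in mutant-labelled and 340.5 ± 21.8 CPM in wild-type libraries (SD, n = 3 each), and Mfge8, a secreted glycoprotein, averaged 151 ± 7.58 and 140.2 ± 16.1 CPM in the same groups. Ptprz1, a receptor phosphatase of outer radial glia and oligodendrocyte precursors, and Nes, the intermediate filament nestin, had paired log2 fold changes of 0.10 and 0.09. For Ptprz1 and Nes the spread within a genotype was larger than the difference, and markers of dividing cells behaved alike, with 8 of 12 higher in all pairs and none passing either fit.

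Slc1a2 rose in the astrocyte list. It encodes the glutamate transporter GLT-1, the main glutamate uptake carrier of mature astrocytes, which some developing neurons also express. Slc1a2 (ENSMUSG00000005089.15) lies on chromosome 2 of GRCm38 from 102658659 to 102790784 on the plus strand. It had 120.1, 124 and 129 CPM in mutant-labelled libraries, against 104, 103 and 105 CPM in wild type. Every mutant-labelled library lay above every wild-type library, and the wild-type libraries differed among themselves by less than 3 CPM. The log2 fold change was 0.26 (SE 0.04, edgeR adjusted p = 0.0035) paired and 0.26 (SE 0.05, adjusted p = 0.228) unpaired, and DESeq2 without pairing also called it (adjusted p = 0.0114). The paired call was lost without the libraries numbered 3 (log2 fold change 0.24, adjusted p = 0.156) and held without those numbered 1 or 2.

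Sparcl1 fell. Hevin, its product, promotes the formation of excitatory synapses and is made by astrocytes, radial glia, some neurons and vessel cells. Sparcl1 lies on chromosome 5 of GRCm38 from 104079111 to 104113733 on the minus strand. It had 302, 288 and 292 CPM in mutant-labelled libraries, against 352, 313 and 361 CPM in wild-type libraries. The groups did not overlap, and the wild-type libraries were the more spread. The paired log2 fold change was −0.21 (SE 0.05, edgeR adjusted p = 0.0182), while the unpaired fit gave −0.22 (SE 0.07, adjusted p = 0.483) and DESeq2 an adjusted p of 0.213. Without the libraries numbered 3 the paired value was −0.17 with an adjusted p of 0.416. Markers of endothelial cells and pericytes, which can express Sparcl1, summed to 440, 403 and 351 CPM in mutant-labelled libraries, against 472, 426 and 357 CPM in wild type, lower within each pair, with 0 of 16 passing either fit. The neuronal splicing factor gene Rbfox3 was lower when paired, with a log2 fold change of −0.19 (SE 0.04, adjusted p = 0.0335). The part of vessel or neuronal RNA in the Sparcl1 result was not tested.

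Next to these, Slc4a4, a sodium bicarbonate cotransporter of astrocytes, had 27.8, 29.9 and 26.6 CPM in mutant-labelled libraries, against 36.7, 35.1 and 29.4 CPM in wild-type libraries. The groups overlapped by mutant-labelled library 2 and wild-type library 3. The paired log2 fold change of −0.26 (SE 0.07) missed the threshold (adjusted p = 0.0624). Slc4a4 passed without the libraries numbered 2 (−0.28, adjusted p = 0.010), where the paired fit called 1874 genes in all, against 506 on all pairs. Apoe had 159, 123 and 139.7 CPM in mutant-labelled libraries, against 183, 149 and 128 CPM in wild type. Apoe overlapped between groups, and its paired log2 fold change of −0.12 (SE 0.07) did not pass.

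Aldoc had 148, 143 and 148 CPM in mutant-labelled libraries, against 149.8, 127 and 135 CPM in wild type. It overlapped between groups too, and its paired log2 fold change was 0.09 (SE 0.05). The remaining astrocyte markers above 10 CPM with moderate spread included Acsbg1, an acyl-CoA synthetase, Mlc1, a membrane protein of astrocyte endfeet, and Id3, an inhibitor of basic helix-loop-helix factors. Their paired log2 fold changes were 0.08, 0.04 and −0.13, with standard errors of 0.07, 0.07 and 0.08.

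**Figure D3:**
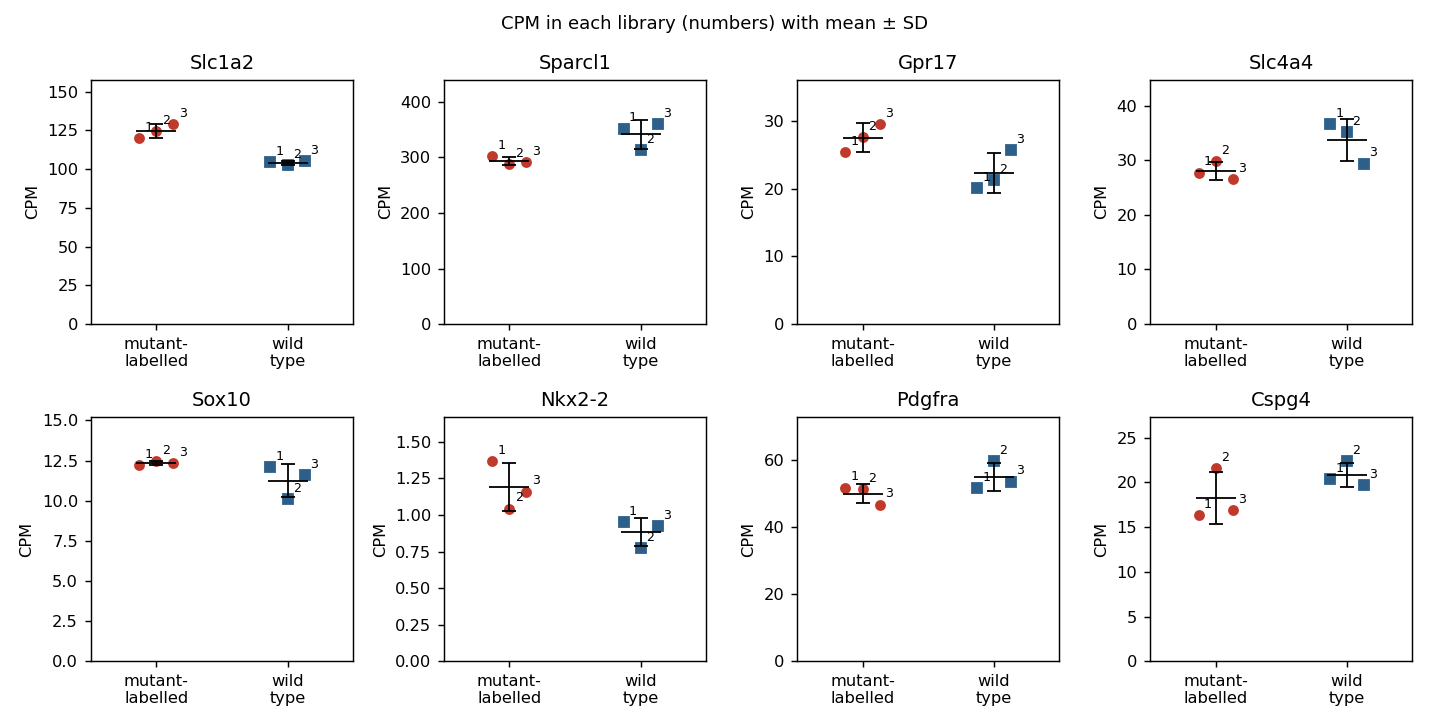
CPM in each library for 8 members, mutant-labelled left of wild type, with the library number beside each point and bars for mean ± SD over 3 libraries; axes start at 0. Slc1a2 spans 120.1 to 129 CPM in mutant-labelled and 103 to 105 CPM in wild-type libraries, Sparcl1 is lower in all 3 mutant-labelled libraries, and Gpr17 is higher within each number although 25.4 CPM in mutant-labelled library 1 falls below 25.7 CPM in wild-type library 3.

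For Gfap, Aqp4, S100b and Agt no difference was resolved. Gfap had 16.3, 12.7 and 13.1 CPM in mutant-labelled libraries, against 17.6, 10.4 and 16.2 CPM in wild-type libraries. Aqp4, the water channel of astrocyte endfeet, had 9.90, 11.6 and 14.4 CPM in mutant-labelled libraries, against 13.9, 10.05 and 12.96 CPM in wild-type libraries. Both overlapped, and neither kept 1 sign over the 3 pairs. S100b and Agt, the angiotensin precursor, had 94 and 117 reads in all 6 libraries together, so their paired intervals of −0.92 to 0.63 and −1.18 to 0.20 leave room for sizeable changes. Agt had 0.754, 0.417 and 1.21 CPM in mutant-labelled libraries, against 1.71, 0.483 and 1.14 CPM in wild type. Its groups overlapped, and at −0.49 (SE 0.32) it was the largest negative paired log2 fold change of the list and did not pass (adjusted p = 0.467). Without the libraries numbered 1 the paired value of Agt was −0.020.

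A trio of astrocyte markers varied more between pools than between genotypes. Gja1, the gap junction protein connexin 43, had 76.1, 40.4 and 37.3 CPM in mutant-labelled libraries, against 72.2, 56.8 and 25.5 CPM in wild-type libraries. Gjb6, connexin 30, had 5.75, 1.71 and 1.01 CPM in mutant-labelled libraries, against 3.89, 6.47 and 0.272 CPM in wild-type libraries. The highest Gjb6 library stood 23.8-fold above the lowest, and the spread of both connexins within a genotype was wider than that of 98.3% and 99.8% of all genes tested. Connexin 43 is also a protein of the meninges, and connexin 30 is found there too.

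Meningeal fibroblast markers, 13 of 13 tested and none called, summed to 515, 220 and 184 CPM in mutant-labelled libraries, against 606, 431 and 164 CPM in wild-type libraries. As with Gja1, libraries 1 of both genotypes and wild-type library 2 were the 3 highest and wild-type library 3 the lowest. The fold changes of both connexins differed in sign between pairs, for Gja1 0.07, −0.48 and 0.54 in pairs 1 to 3 and for Gjb6 0.51, −1.66 and 0.96. On pairs 1 and 3 alone the paired fit called 1874 genes in all, against 506 on all pairs. Among the 1874 were Gja1 and Gjb6, higher by 0.27 (adjusted p = 0.00227) and 0.74 (adjusted p = 0.0278). On all pairs the paired fit gave 0.02 (SE 0.26) for Gja1 and −0.33 (SE 0.87) for Gjb6. The part of meningeal RNA in these values was not tested.

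Aldh1l1, a folate enzyme used to mark astrocytes, had 94.7, 60.3 and 58.6 CPM in mutant-labelled libraries, against 89.4, 53.2 and 59.2 CPM in wild-type libraries. Libraries 1 stood apart in both genotypes. Choroid plexus markers, 8 of 8 tested and none called, had summed levels of 829, 196 and 155 CPM in mutant-labelled libraries, against 847, 128 and 235 CPM in wild-type libraries, again highest in libraries 1. Whether choroid plexus or other tissue in those pools contributed to Aldh1l1 was not tested. Its paired log2 fold change was 0.09 (SE 0.05), and its unpaired standard error was 0.26.

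**Figure D4:**
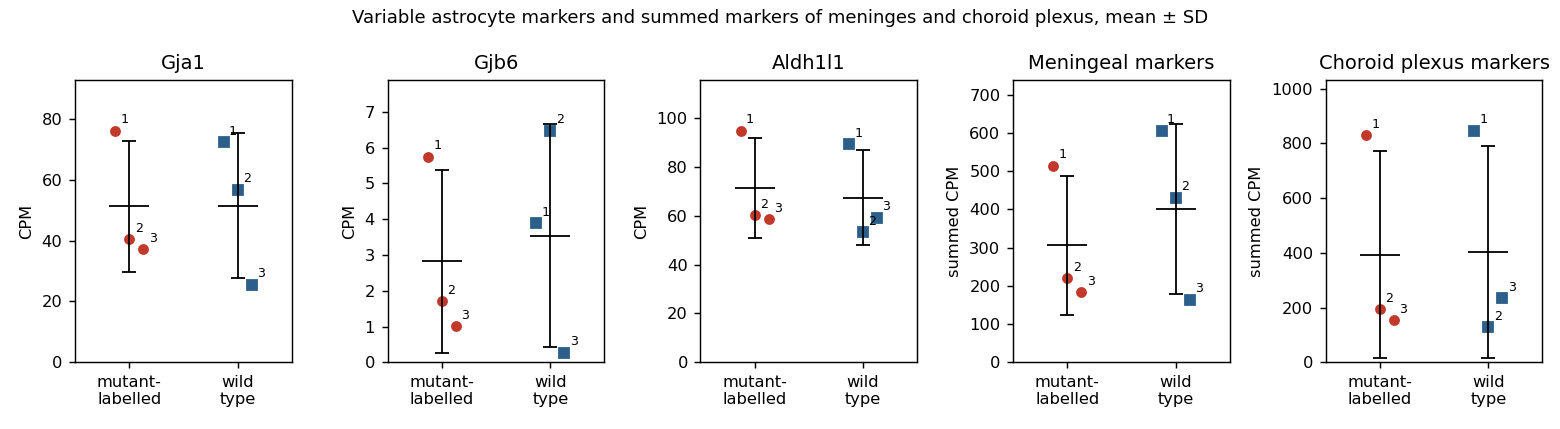
CPM of Gja1, Gjb6 and Aldh1l1 beside the summed CPM of 13 meningeal and 8 choroid plexus markers in each library, mutant-labelled left of wild type, with library numbers and mean ± SD over 3 libraries. Libraries 1 are highest of each genotype for Gja1, Aldh1l1 and both sums, and Gjb6 runs from 0.272 CPM in wild-type library 3 to 6.47 CPM in wild-type library 2.

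Gpr17 rose in the oligodendrocyte list when libraries were paired. It encodes an orphan G protein-coupled receptor that is switched on as precursors commit to differentiation and is lost again in mature oligodendrocytes. Gpr17 lies on chromosome 18 of GRCm38 from 31942997 to 31949636 on the minus strand. It had 25.4, 27.7 and 29.6 CPM in mutant-labelled libraries, against 20.1, 21.3 and 25.7 CPM in wild type. Within each number the mutant-labelled library was higher, while the groups just overlapped. The log2 fold change was 0.31 (SE 0.08, edgeR adjusted p = 0.0386) paired and 0.30 (SE 0.11, adjusted p = 0.61) unpaired, and DESeq2 gave an adjusted p of 0.619. The paired call was lost without the libraries numbered 1 (0.29, adjusted p = 0.152) or 3 (0.36, adjusted p = 0.238). Of its exon bases 3.6% overlap Lims2 on the opposite strand, a gene at 3.11, 1.71 and 2.37 CPM in mutant-labelled and 3.18, 1.79 and 1.91 CPM in wild-type libraries, and whether reads were assigned by strand is not stated.

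The lineage transcription factors did not pass. Olig1 had 59.2, 59.7 and 73.7 CPM in mutant-labelled libraries, against 63.4, 55.0 and 65.5 CPM in wild-type libraries. Olig2 had 32.8, 33.8 and 36.5 CPM in mutant-labelled libraries, against 35.2, 26.1 and 32.8 CPM in wild-type libraries. Both were lower in pair 1 and higher in pairs 2 and 3, with paired log2 fold changes of 0.06 (SE 0.06) and 0.14 (SE 0.08).

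Sox10, which drives the myelin programme, had 12.2, 12.5 and 12.3 CPM in mutant-labelled libraries, against 12.1, 10.1 and 11.6 CPM in wild-type libraries. Nkx2-2, a homeodomain factor of differentiating precursors, had 1.37, 1.04 and 1.16 CPM in mutant-labelled libraries, against 0.948, 0.773 and 0.925 CPM in wild-type libraries. The groups of neither gene overlapped, but for Sox10 the gap was as narrow as 12.2 against 12.1 CPM. The paired log2 fold changes of 0.14 (SE 0.10) and 0.43 (SE 0.27) did not pass, with adjusted p of 0.538 and 0.444, and Nkx2-2 rested on 130 reads in all.

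Pdgfra and Cspg4, surface markers of oligodendrocyte precursors, gave paired log2 fold changes below 0. Ptprz1, a receptor of precursors and radial glia, was at 0.10. Pdgfra, the receptor for the mitogen PDGF, had 51.7, 51.4 and 46.7 CPM in mutant-labelled libraries, against 51.6, 59.7 and 53.6 CPM in wild-type libraries. Cspg4, the proteoglycan NG2, had 16.3, 21.6 and 16.9 CPM in mutant-labelled libraries, against 20.4, 22.4 and 19.7 CPM in wild-type libraries. Both overlapped, with paired log2 fold changes of −0.14 (SE 0.06, adjusted p = 0.260) and −0.20 (SE 0.09, adjusted p = 0.248). Cspg4 passed only on pairs 1 and 3 (−0.27, adjusted p = 0.0487), where the paired fit called 1874 genes in all. Meningeal cells also express Pdgfra and pericytes express Cspg4, and the sums of both marker lists differed between libraries as given above. The meningeal list holds Pdgfra itself and the endothelial cell and pericyte list holds Cspg4 itself. Each sum thus includes the gene it is set beside, and the part of those cells in either gene was not tested.

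The remaining tested genes of the list did not pass either. Mbp, a myelin protein whose gene also gives rise to neuronal golli transcripts, had 32.6, 33.7 and 34.1 CPM in mutant-labelled libraries, against 40.0, 32.2 and 36.7 CPM in wild type. Cnp, a myelin-associated phosphodiesterase, was lower in all 3 pairs, with a log2 ratio of −0.0037 in pair 2, with a paired log2 fold change of −0.14 (SE 0.09). Bcas1, a marker of early myelinating cells, had a paired log2 fold change of −0.02 (SE 0.14). Myt1 had 60.5, 59.7 and 55.5 CPM in mutant-labelled libraries, against 56.8, 56.9 and 60.8 CPM in wild type. The groups of Myt1 overlapped, at a paired log2 fold change of 0.01 (SE 0.06). Gjc3, an oligodendrocyte connexin, had 1.23, 2.08 and 1.56 CPM in mutant-labelled libraries, against 2.09, 1.74 and 1.85 CPM in wild type, and at −0.22 (SE 0.24) was the most negative paired value of the list.

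**Figure D5:**
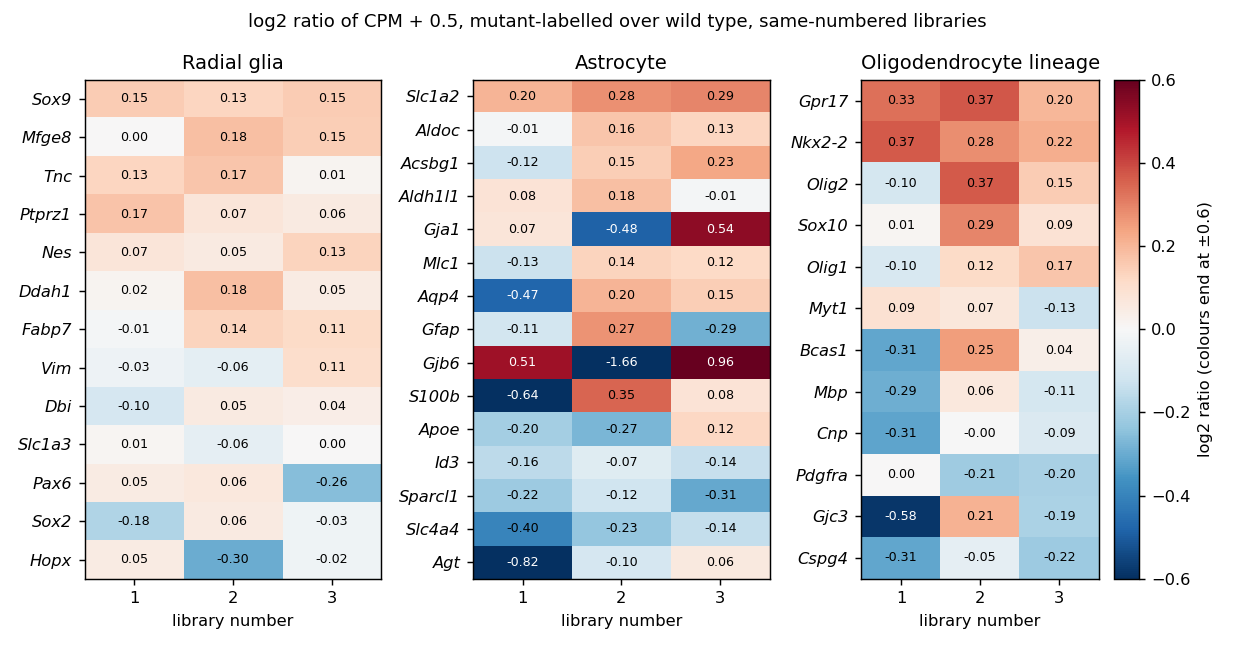
Log2 ratio of CPM plus 0.5 between the mutant-labelled and the wild-type library of each number, for the 40 tested members, with colours that end at ±0.6. Gpr17 is positive in all columns (0.33, 0.37 and 0.20), Sparcl1 is negative in all (−0.22, −0.12 and −0.31), and Gja1 and Gjb6 change sign between columns.

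Over the 40 tested members, 10 were higher and 5 lower in all 3 pairs, together 15, beside 39% of all genes tested with the same sign in every pair. Among oligodendrocyte markers 3 were higher and 2 lower in every pair, among astrocyte markers 1 and 3. Pair medians differed in sign for the astrocyte list, at −0.13, 0.14 and 0.12 in pairs 1 to 3, and for the oligodendrocyte list, at −0.10, 0.16 and −0.02. The radial glia medians were 0.02, 0.06 and 0.05.

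No further gene of the same cell types passed without pairing. The paired shares that follow are to be read against the 3.46% of all genes tested that the paired fit called. Of 30 further radial glia and gliogenesis genes, 1 (3.33%) was higher and 0 lower when paired: Sall1, a transcription factor of neural progenitors, with a log2 fold change of 0.29 (SE 0.07, adjusted p = 0.0311). The gliogenic factors Nfia and Nfib were among the 29 that did not pass, with paired log2 fold changes of 0.02 and 0.05. The Notch effectors Hes1 and Hes5 did not pass either, at −0.62 (SE 0.25, adjusted p = 0.269) and −0.21 (SE 0.09, adjusted p = 0.226). Hes1 was the most negative of that list, but its groups overlapped and its log2 ratio in pair 1 was 0.17. Of 29 further astrocyte genes in the table, 0 were higher and 2 (6.9%) lower when paired. Timp3, a metalloproteinase inhibitor that vessel and meningeal cells also make, had 51.4, 39.1 and 38.6 CPM in mutant-labelled libraries, against 75.3, 62.6 and 50.3 CPM in wild type, and fell by 0.54 on that scale (SE 0.06, adjusted p = 0.000251). Ndrg2, a cytoplasmic protein of astrocytes, fell by 0.19 (SE 0.04, adjusted p = 0.0284). Timp3 and Ndrg2 both overlapped between groups, and the part of vessel or meningeal RNA, whose sums are given above, was not tested.

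Of 30 further oligodendrocyte lineage genes, 25 had enough reads to be tested. Of the other 5, Opalin was listed at 0 in every library, and Mog, Mobp, Neu4 and Nkx6-2 had 22, 10, 46 and 6 reads in all. The late myelin genes Opalin, Mog and Mobp were thus close to or below what this depth could measure.

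Microglia are among the other cells that express Apoe. Their markers summed to 138, 109 and 108 CPM in mutant-labelled libraries, against 141, 118 and 125 CPM in wild-type libraries. Of these markers, 0 of 13 passed either fit. The sums were lower in each pair, as Apoe was in pairs 1 and 2 but not in pair 3. The part of microglia or of any other cells in the Apoe values was not tested.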

How the data were processed

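The authors deposited raw counts for each gene symbol from stranded TruSeq total RNA libraries, per the labels' protocols, with no scaling applied. CASAVA 1.8.2, HTSeq 0.5.3p9, Bowtie2 2.1.0, TopHat2 2.0.9 and the mm10 build appear in the submitters' processing notes, without settings, annotation or strand mode. All rows named a gene, and 0 sample columns were unused.

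Differences were tested in R 4.3.3 by edgeR 4.0.16 (robust quasi-likelihood test, TMM scaling, default expression filter, two-sided, Benjamini-Hochberg adjustment over 14618 genes, threshold 0.05). Standard errors came from the F statistic, and confidence intervals are at 95%. DESeq2 1.42.0, other scalings, filters and left-out libraries were alternatives. CPM values use TMM-scaled library sizes. Exon lengths and positions are from GENCODE M21 on GRCm38, which may not be the annotation counted on.

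The fit without a block was the main one. The labels give library numbers without saying what they share. Deviations from group means correlated at 0.64, 0.57 and 0.52 between same-numbered libraries and at −0.53 to −0.09 otherwise, so the numbers were taken as pairs from the data. With 3 libraries a group, such values can arise without true pairs. The biological coefficient of variation was 0.128 without and 0.0584 with the block. The chi-square per degree of freedom between libraries of a genotype was 6.67 to 21.6, above sampling noise.

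Members and lists were chosen with earlier results of these data known. Named with all values were members called in either fit or with groups that do not overlap, the 3 highest per length and the most positive and negative of each list, and those with 10 reads or fewer; others were added where a result touched them. P-values of the unpaired fit set the difference against the spread between pools of a genotype. Those of the paired fit set it against the spread left after what same-numbered pools share is removed. A result among the further lists is not reported here.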

Additional observations from a re-analysis of the deposited data

How the results depend on the processing

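With the replicate block in place of the unblocked fit, 506 genes were called in all, with 2 astrocyte and 1 oligodendrocyte members, against 11, 0 and 0 without it. DESeq2 called 108 genes and 1 astrocyte member, Slc1a2, and 20 genes were called with no expression filter. With each library left out in turn, 3 to 35 genes were called unpaired, with 0 members, and the radial glia median ran from 0.012 to 0.069. With the block and without the libraries numbered 1, 2 or 3, the counts were 295, 1874 and 62 genes, 2, 5 and 0 astrocyte members and 0, 2 and 0 oligodendrocyte members, on 1 residual degree of freedom. Without both libraries numbered 1 and unpaired, an alternative chosen after seeing the data, 2 genes and no member passed.

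Of the 40 tested members 20 kept their sign in every alternative, the 3 called ones and Slc4a4, Sox9 and Nkx2-2 among them. For the others the log2 fold changes that turned were as follows, and the cause was not tested. With the block they were 0.0040 for Vim and 0.017 for Gja1. On library totals alone they were 0.0092 for Vim, 0.0055 for Dbi and 0.0030 for Gja1, and with no filter 0.0062 for Vim and 0.0029 for Dbi. With the block and without the libraries numbered 1 they were 0.014 for Sox2, 0.022 for Vim, 0.047 for Dbi, 0.18 for Aqp4, 0.40 for S100b, 0.15 for Bcas1, −0.030 for Myt1 and 0.029 for Gjc3. Without those numbered 2 they were 0.035 for Vim, 0.0067 for Slc1a3, 0.018 for Hopx, 0.27 for Gja1, 0.74 for Gjb6, −0.0066 for Mlc1 and −0.018 for Myt1. Without those numbered 3 they were 0.058 for Pax6 and 0.075 for Gfap. Unpaired without both libraries numbered 1 they were 0.010 for Sox2, 0.018 for Vim, 0.047 for Dbi, 0.18 for Aqp4, 0.40 for S100b, 0.14 for Bcas1, −0.031 for Myt1 and 0.029 for Gjc3. With each library left out in turn the range was −0.18 to 0.34 for Aldh1l1, −0.24 to 0.015 for Apoe, −0.19 to 0.079 for Aqp4, −0.26 to 0.15 for Bcas1, −0.056 to 0.043 for Dbi, −0.27 to 0.078 for Gfap, −0.41 to 0.31 for Gja1, −1.38 to 0.41 for Gjb6, −0.30 to 0.028 for Hopx, −0.25 to 0.011 for Id3, −0.012 to 0.11 for Mlc1, −0.014 to 0.051 for Myt1, −0.040 to 0.12 for Olig1, −0.087 to 0.0086 for Pax6, −0.0084 to 0.21 for Ptprz1, −0.37 to 0.32 for S100b, −0.051 to 0.032 for Slc1a3, −0.19 to 0.069 for Sox2 and −0.12 to 0.12 for Vim. Over all fits with libraries left out, paired or not, values that kept their sign ran from −0.93 to −0.016 for Agt, 0.014 to 0.26 for Olig2, 0.019 to 0.18 for Tnc and 0.074 to 0.22 for Sox9. Low counts limit Nkx2-2, S100b, Agt and Gjc3.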

Other observations

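The ratio of the CPM of Gpr17 to that of Pdgfra, 2 stages of the oligodendrocyte lineage, was 0.491, 0.539 and 0.634 in mutant-labelled libraries 1 to 3, against 0.389, 0.356 and 0.480 in wild-type libraries 1 to 3. The groups just failed to overlap. The ratio was formed after the values of both genes were seen, so it is given with no test, and it is not corrected for gene length.

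The ratio of the CPM of Slc1a2 to that of Slc1a3, the glutamate transporters of mature astrocytes and of radial glia, was 0.471, 0.547 and 0.526 in mutant-labelled libraries, against 0.412, 0.434 and 0.429 in wild-type libraries. Here too the groups did not overlap, but those of Slc1a2 alone did not either, so the ratio is no separate result. It was likewise chosen after the values were seen.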
